A study of Glycine max with 18 samples.

Results

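A set of 82 probes stood low in well-watered roots of the soybean cultivar Williams 82 (W82), at least 2-fold higher after 10 h of dehydration of W82, and at least 2-fold higher already in well-watered roots of the cultivar DT2008, where 10 h of dehydration moved them little. The probes were chosen by measured values, the group means of log2 expression: a mean in dehydrated W82 at 10 h (W-D10) at least 1 above well-watered W82 (W-C), a mean in well-watered DT2008 (DT-C) at least 1 above W-C, and a mean in DT2008 after 10 h (DT-D10) within 0.5 of DT-C. Of 66195 probes, 2337 met the first condition, 976 met the second and 184 met both. Of these 184, 89 lay above the band of 0.5 around DT-C and 12 lay below it. W-C enters both of the first conditions, so that a low reading there helps a probe to meet both. The size of the set depended on the scaling of the arrays: after quantile normalization 22 probes met the rule, and all 22 were among the 82.

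In plant roots, loss of water sets off signaling through abscisic acid and through pathways independent of it, and transcription factors of the NAC, MYB, heat shock factor and other families pass the signal on to genes for transport, sugar metabolism, cell wall and hormone breakdown. Such genes are usually described by their induction, yet genotypes can also differ in the level that a stress gene holds before any stress. A transcript that is induced in one cultivar and already high in another is therefore seen either as a response or as a standing difference, depending on the comparison made.

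Roots were taken from 14-day-old plants of both cultivars, grown 6 to a pot in vermiculite, before any dehydration at 0 h (W-C, DT-C) and once the whole plants had been removed from their pots and left to dry on paper: the W-D2, DT-D2 groups were taken at 2 h, the W-D10, DT-D10 groups at 10 h. There were 3 biological replicates, each on its own array, in every group. W82 is the cultivar of the sequenced soybean genome, and DT2008 is grown in Vietnam and is described by the study as the more drought tolerant of the pair. Each cultivar stands for 1 genotype. The samples used here hold no roots kept watered for 2 or 10 h, so that dehydration and the hours gone by cannot be told apart within a cultivar. Drying also took place in a cooler room and in weaker light than the greenhouse. These changes cannot be told apart from dehydration either. The W-D2 and DT-D2 arrays were not used to choose the probes, and DT-D2/W-D2 is the comparison that was tested. The rule nevertheless asks for a higher mean in DT-C than in W-C, which favors a difference between the same cultivars at 2 h. All other differences below are descriptions.

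Each value is a log2 intensity from which the median of its probe on the 18 arrays had been taken, so values can be set against each other across groups within a gene, whereas abundance is not given and different genes cannot be ranked by level. Array medians over all probes lay between -0.02 and 0.02. The arrays differed more in spread: the SD over all probes was 0.42 to 0.46 on the W-C arrays, 0.31 to 0.36 on the W-D2 arrays and 0.36 to 0.38 on the W-D10 arrays, and 0.40 to 0.42, 0.32 to 0.43 and 0.34 to 0.38 on the DT-C, DT-D2 and DT-D10 arrays. As a check on tissue, 6 photosystem and light-harvesting probes, markers of shoot tissue, averaged -0.65 to -0.49 over the W-C arrays, -0.73 to -0.34 in DT-C, -0.36 to -0.11 in W-D2, 0.37 to 0.66 in DT-D2, -0.01 to 0.32 in W-D10 and -0.03 to 0.49 in DT-D10. Of the 6, 3 were at least 2-fold higher in W-D10 than in W-C, and 3 were upregulated in DT-D2/W-D2 and 0 downregulated. On average this marker list thus stood higher in DT-D2 than in W-D2 and higher in W-D10 than in W-C, as the members did. Its W-C and DT-C ranges overlapped. Single probes of the list went different ways: Glyma.06G194900 was lower in W-D10 than in W-C (-1.36), and Glyma.05G149400 was lower in DT-D2 than in W-D2 (-0.41). The part of this list in the results below was not tested. The 16 probes picked by nodule-related names averaged 0.11 to 0.18 on the W-D2 arrays and -0.10 to -0.01 on the DT-D2 arrays. They include nodulin-named genes of the MtN3 family, matched to SWEET17 and SWEET5, and an MtN21/EamA-like transporter. The list is therefore not read as a measure of nodule tissue. In whole roots a smaller share of cells of a type and less transcript per cell cannot be told apart.

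Exactly 1 gene could be paired with 27 of the 82 members, 23 by a Glyma 2 identifier, 1 by a Glyma 1 identifier and 3 by the symbol of the array annotation, and the other 55 are given by probe number. The study's tables used for this pairing include lists of genes that the study had picked on these same arrays, so the 27 are not a random draw from the set. They named 2975 probes here. The study reports annotated genes for far more of the array, so an unpaired member need not lack a gene there. Of the 27, 21 had a best match in Arabidopsis thaliana, and the roles given below are those of the Arabidopsis proteins unless soybean is named. No gene was represented by more than 1 member probe. The unpaired probes 12132950 and 12144068 carried the same value on each of the 18 arrays, so the 82 probes hold 81 distinct profiles, and 214 probes of the whole array share their profile with another in this way.

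**Figure D1:**
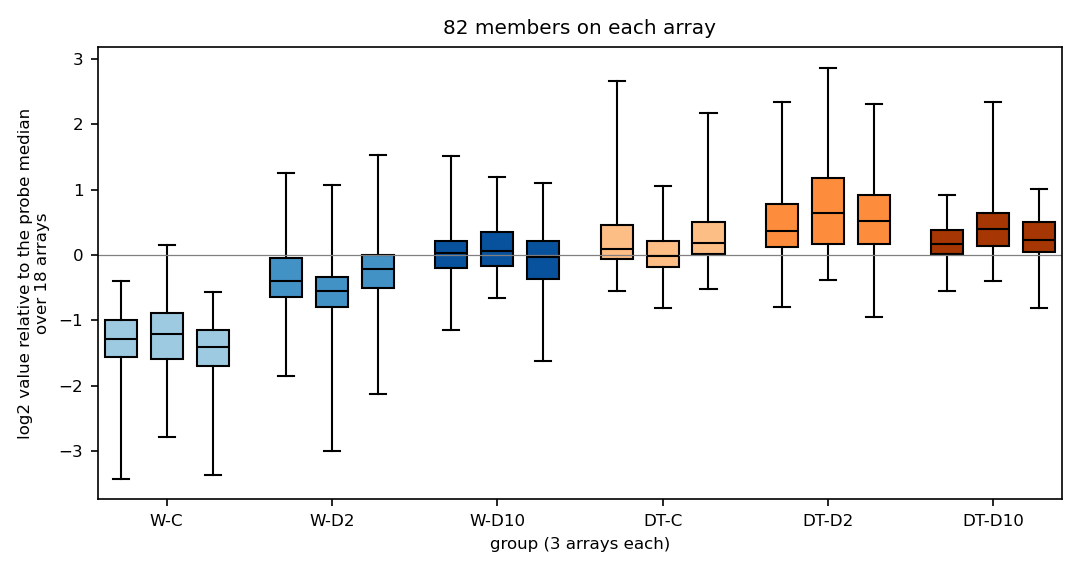
Log2 values of the 82 members on each of the 18 arrays, relative to the median of each probe, with boxes from the lower to the upper quartile, a line at the median and whiskers to the lowest and highest member. The W-C medians lie between -1.41 and -1.21 and the DT-D2 medians between 0.37 and 0.64, while the DT-C medians (-0.02 to 0.18) lie near the W-D10 medians (-0.04 to 0.07).

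Before dehydration the members had a median of -1.29, -1.21 and -1.41 on the 3 W-C arrays and of 0.09, -0.02 and 0.18 on the 3 DT-C arrays. At 10 h the medians were 0.03, 0.07 and -0.04 in W-D10 and 0.16, 0.40 and 0.23 in DT-D10. The rule fixes these levels, which give the scale of the set: W-D10 was above W-C by 1.00 to 3.18 on the log2 scale (median 1.25), and DT-C was above W-C by 1.01 to 3.33 (median 1.30). W-C was the lowest of the 6 groups for 81 members and W-D2 for the remaining 1, the unpaired probe 12110849.

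At 2 h, which the rule did not use, the members had a median of -0.40, -0.56 and -0.22 on the W-D2 arrays and of 0.37, 0.64 and 0.52 on the DT-D2 arrays. The 3 DT-D2 medians all lay above the 3 W-D2 medians. DT-D2 was also the group with the highest mean for 47 of the 82 members, against 25 for DT-D10, 6 for W-D10, 4 for DT-C and 0 for W-D2. The rule read the 0 h and 10 h groups and keeps W-C from being highest, so nothing is read from these ranks. The cultivar difference was thus still present in most members when both cultivars had been drying for the same time. The same time was not the same loss of water. The study reports a higher relative water content of the shoots in DT2008 than in W82 at each drying time. Cultivar and degree of water loss therefore cannot be told apart in DT-D2/W-D2 or in DT-D10/W-D10.

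**Figure D2:**
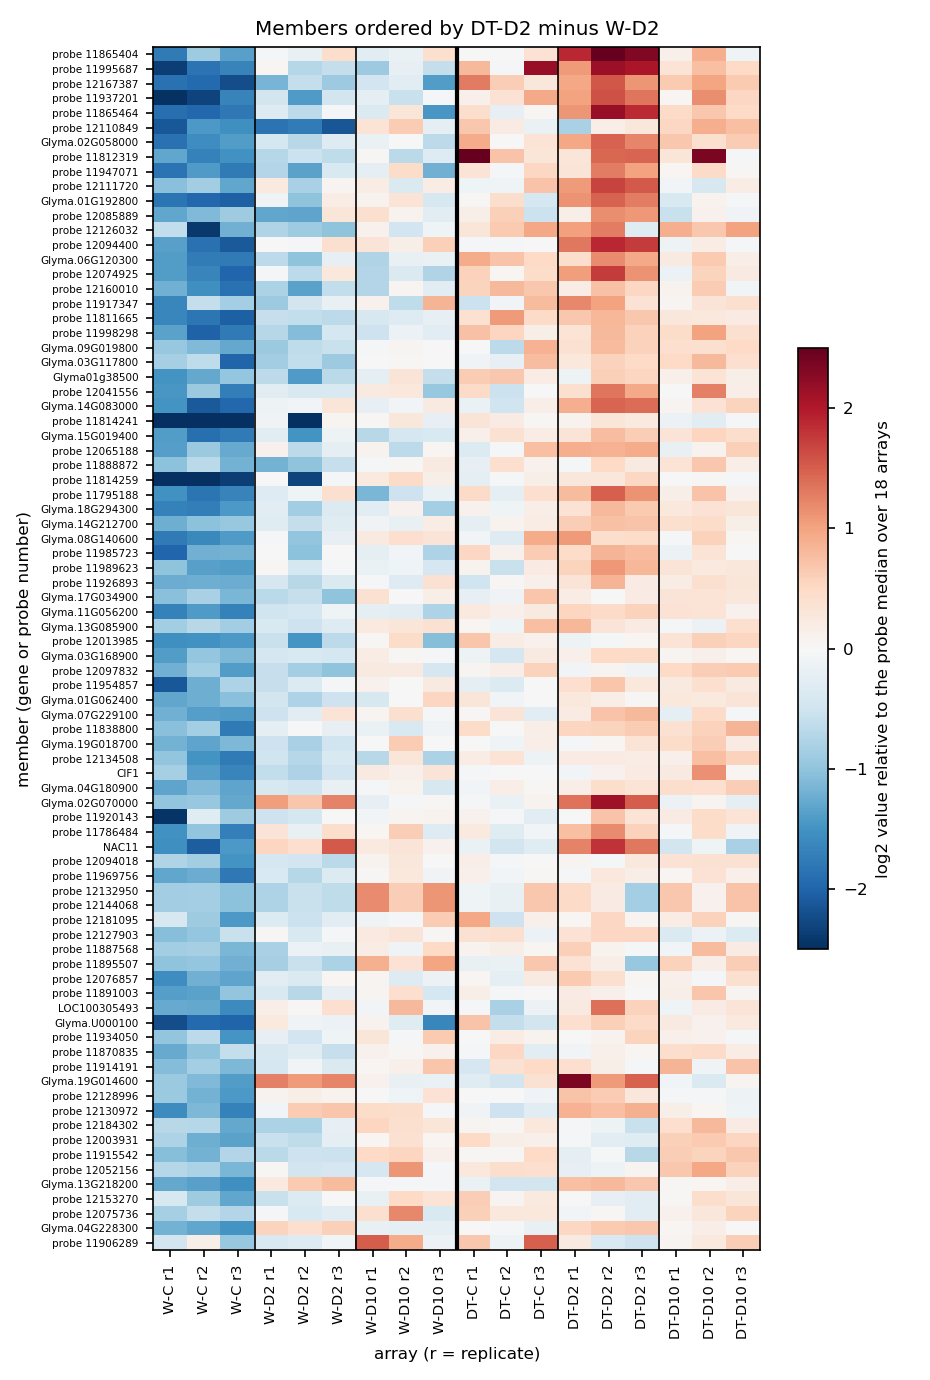
Log2 value of each member (rows, ordered from the largest DT-D2 minus W-D2 difference at the top to the smallest at the bottom) on each array (columns, r for replicate), relative to the median of the probe over 18 arrays; the color scale ends at -2.5 and 2.5. The W-C columns are blue in nearly all rows, the W-D2 columns are mostly pale blue, and most of the dark red cells lie in the DT-D2 columns of the upper rows.

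In DT-D2/W-D2, 33 of the 82 members (40.2%) were upregulated, that is at least 2-fold higher with a Benjamini-Hochberg adjusted p under 0.05 in the limma fit of all 18 arrays, against 1.65% of all 66195 probes. None of the members was downregulated by limma, against 2.56% of all probes, and none was lower at an unadjusted p under 0.05 either. By the adjusted p alone, without the fold threshold, 52 members (63.4%) were higher in DT-D2, against 6.91% of all probes. All 82 members had the higher mean in DT-D2, against 53.6% of all probes, and for 65 members (79.3%) the 3 DT-D2 values all lay above the 3 W-D2 values, against 17.3% of all probes. The median difference was 0.82 on the log2 scale, with a range from 0.03 to 2.29, beside a median of 0.03 over all probes. All probes are a loose background, since the rule selected probes higher in DT-C than in W-C. Of the 792 probes that met this condition without being induced in W82 at 10 h, 43.3% were at least 2-fold higher in DT-D2. The share among the members was 42.7%, so a difference of this size was not particular to them. With Student's t-test, the test named in the methods, and the same thresholds, 5 members were upregulated in place of 33. Of the genes paired with members, only Glyma.02G058000, Glyma.03G117800 and Glyma.14G212700 were among these 5. The calls given below for other genes were therefore not met by the t-test. Without W-D2 replicate 2 the limma count was 24.

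**Figure D3:**
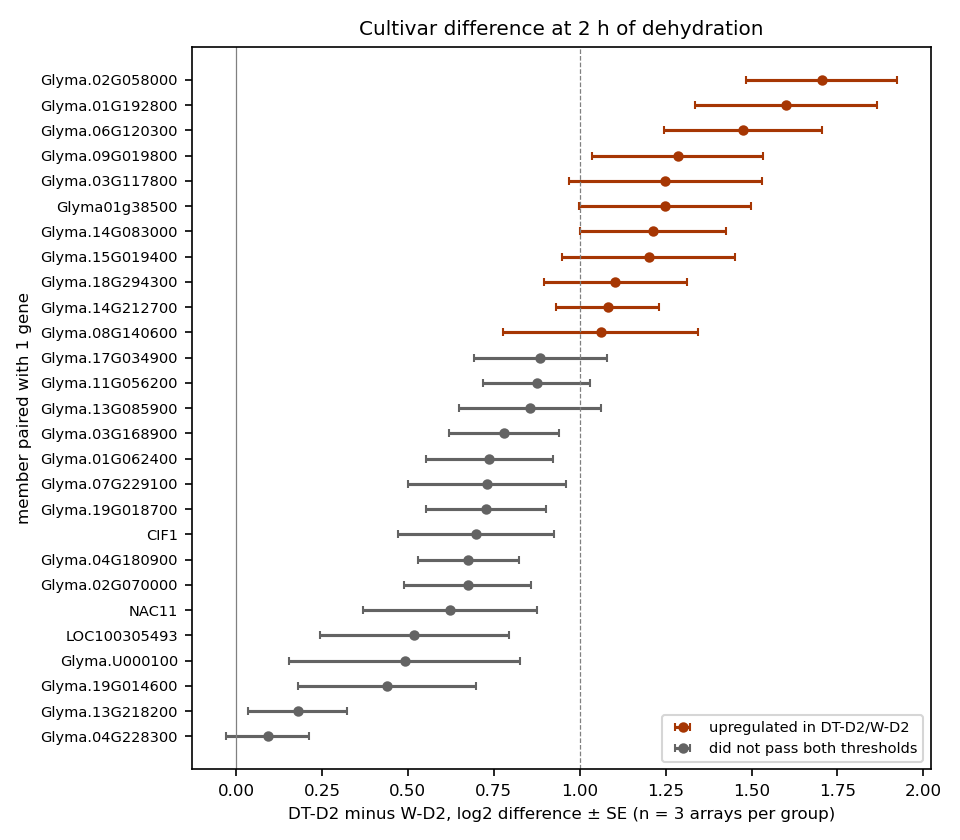
Log2 difference DT-D2 minus W-D2 of the 27 members paired with 1 gene, with the standard error of the limma fit (3 arrays per group). The dashed line marks a 2-fold difference; 11 genes lie to its right and were upregulated, and the point nearest 0 is Glyma.04G228300 at 0.09.

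Among the transcription factors of the set, the 3 NAC members differed between the cultivars by less than 2-fold at 2 h, the MYB-related member was upregulated, and the heat shock factor passed the adjusted p but not the fold threshold. NAC proteins are plant-specific transcription factors, many of which respond to drought and abscisic acid. NAC11, a soybean NAC gene, read 0.54, 0.42 and 1.53 in W-D2 and 1.24, 1.80 and 1.32 in DT-D2. These ranges overlapped, and the difference of 0.62 (SE 0.25, limma adjusted p = 0.115) did not pass. Both cultivars had their highest NAC11 values at 2 h, since the values were -1.53, -2.06 and -1.44 in W-C, 0.24, 0.31 and 0.10 in W-D10, -0.17, -0.47 and -0.30 in DT-C, and -0.45, -0.10 and -0.82 in DT-D10. NAC11 was also the only one of the 27 genes with all 3 DT-D10 values below all 3 W-D10 values.

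Glyma.02G070000, whose match NAC047 takes part in ethylene-driven leaf movement, had the same course. It read -0.98, -0.95 and -1.28 in W-C, 1.04, 0.69 and 1.23 in W-D2, and -0.20, -0.04 and 0.04 in W-D10. In DT2008 it read -0.06, -0.17 and 0.09 in DT-C, 1.36, 2.12 and 1.51 in DT-D2, and -0.14, 0.07 and -0.24 in DT-D10. The 10 h values of both cultivars were therefore close to DT-C, and the 2 h values were more than 2-fold above it on each DT-D2 array. The lowest DT-D2 value lay above the highest W-D2 value, with a difference of 0.67 (SE 0.18, adjusted p = 0.0191) below 2-fold. Glyma.07G229100, annotated NAC51 and matched to NAP, a promoter of leaf senescence, read -0.52, -0.29 and 0.34 in W-D2 and 0.21, 0.71 and 0.80 in DT-D2, and differed by 0.73 (SE 0.23, adjusted p = 0.0396) with overlapping ranges.

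Glyma.15G019400, matched to a MYB family transcription factor of the homeodomain-like superfamily, read -0.28, -1.49 and -0.14 in W-D2 and 0.32, 0.77 and 0.61 in DT-D2. It was upregulated by 1.20 (SE 0.25, adjusted p = 0.00335), but the low second W-D2 array carried part of this: without it the difference was 0.77. Glyma.11G056200, matched to the class B heat shock factor HSFB1, a repressor in the heat response, was among the most even members. It read -1.69, -1.41 and -1.69 in W-C, -0.49, -0.44 and -0.10 in W-D2, and -0.25, -0.26 and -0.76 in W-D10, whereas every DT2008 array read between 0.10 and 0.58. No DT2008 value of this gene was thus as low as any W82 value. Its difference at 2 h was 0.87 (SE 0.15, adjusted p = 8.67e-04), below 2-fold.

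**Figure D4:**
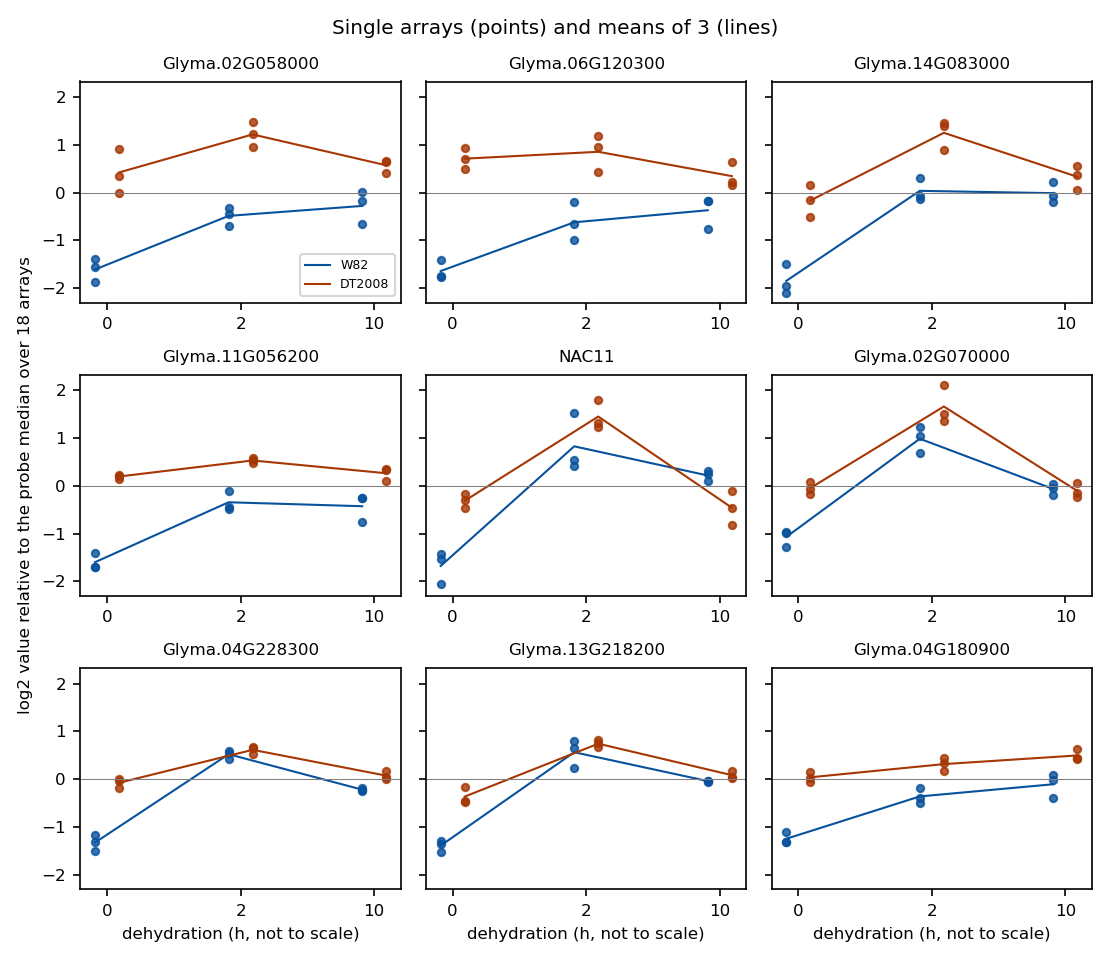
Log2 values of 9 members on the single arrays (points) and means of 3 arrays (lines) at 0, 2 and 10 h of dehydration, relative to the median of each probe, W82 in blue and DT2008 in brown; the time axis is not to scale. The lines of Glyma.02G058000, Glyma.06G120300 and Glyma.11G056200 stay apart at all 3 times, while those of Glyma.04G228300 and Glyma.13G218200 meet at 2 h.

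Both members linked to the circadian clock were far above W-C at 2 h, and they differed in what the cultivars showed there. Glyma.14G083000 is matched to COR27, a cold-regulated protein that acts with the clock, though the similarity is described as very weak. It read -1.49, -2.09 and -1.96 in W-C, -0.13, -0.07 and 0.31 in W-D2, -0.16, -0.51 and 0.17 in DT-C, and 0.90, 1.46 and 1.40 in DT-D2. All DT-D2 values lay above all values of the other 3 groups, and the gene was upregulated in DT-D2/W-D2 by 1.21 (SE 0.21, adjusted p = 8.04e-04), or 2.32-fold. Glyma.04G228300, matched to PRR5, a repressor of morning genes in the clock, read -1.18, -1.31 and -1.50 in W-C and 0.56, 0.41 and 0.60 in W-D2. In DT2008 it read -0.00, -0.03 and -0.19 in DT-C and 0.52, 0.65 and 0.68 in DT-D2, so that the ranges of the cultivars overlapped at 2 h. The difference was 0.09 (SE 0.12, adjusted p = 0.693), the smallest among the 27 genes.

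The set held a gibberellin oxidase, 3 cytochrome P450 enzymes and an amine oxidase, of which 1 P450 gene was upregulated. Gibberellin 2-oxidases inactivate gibberellins, and Glyma.13G218200, matched to GA2OX2, read -1.29, -1.36 and -1.53 in W-C, 0.24, 0.66 and 0.79 in W-D2, -0.16, -0.47 and -0.46 in DT-C, and 0.75, 0.81 and 0.67 in DT-D2. Its 2 h values overlapped between the cultivars (difference 0.18, SE 0.14, adjusted p = 0.472). Glyma.08G140600, matched to ferulate 5-hydroxylase, which opens the branch to syringyl lignin, read -0.04, -0.98 and -0.21 in W-D2 and 1.06, 0.44 and 0.45 in DT-D2. It was upregulated by 1.06 (SE 0.28, adjusted p = 0.0169), a call that was lost without W-D2 replicate 2 or without DT-D2 replicate 1. Its DT-C values of -0.07, -0.32 and 0.93 also varied widely.

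The other 2 cytochrome P450 members and the amine oxidase were not upregulated. Glyma.19G014600, matched to CYP82C4, an enzyme of coumarin synthesis in iron-deficient roots, read -0.93, -1.10 and -1.39 in W-C, 1.25, 1.07 and 1.23 in W-D2, and 0.11, -0.18 and -0.17 in W-D10. DT2008 read -0.31, -0.46 and 0.38 in DT-C and 2.34, 1.06 and 1.47 in DT-D2, with a difference from W-D2 of 0.44 (SE 0.26, adjusted p = 0.297). It and Glyma.02G070000 were the only members of the 82 whose W-D2 mean exceeded the W-D10 mean by at least 2-fold, against 730 of all 66195 probes. The rule selects a high W-D10, which works against such a fall. Glyma.U000100, matched to CYP76C4, was -2.22, -1.95 and -2.00 in W-C and 0.25, -0.09 and -0.14 in W-D2, against 0.42, 0.60 and 0.47 in DT-D2 (difference 0.49, SE 0.34, adjusted p = 0.383). Its W-D10 values of 0.09, -0.30 and -1.63 were far apart. Copper amine oxidases oxidize amines and release hydrogen peroxide, and Glyma.01G062400 of this family read -0.46, -0.78 and -0.51 in W-D2 and 0.26, 0.17 and 0.03 in DT-D2 (difference 0.74, SE 0.19, adjusted p = 0.0118).

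The gene with the largest 2 h difference among the 27 encodes a transporter. Glyma.02G058000, a major facilitator superfamily member described as a putative mannitol transporter, read -1.87, -1.56 and -1.39 in W-C, -0.44, -0.69 and -0.32 in W-D2, and -0.18, 0.00 and -0.66 in W-D10. DT2008 read 0.92, -0.00 and 0.35 in DT-C, 0.96, 1.47 and 1.22 in DT-D2, and 0.67, 0.41 and 0.64 in DT-D10. At both 2 h and 10 h every DT2008 array lay above every W82 array. It was upregulated in DT-D2/W-D2 by 1.70 (SE 0.22, adjusted p = 4.43e-05), or 3.26-fold, and kept the call under each alternative that was run. Of the sugar-related genes, Glyma.04G180900, matched to TPS9 of the trehalose-phosphate synthase family, read -0.40, -0.50 and -0.19 in W-D2 and 0.16, 0.45 and 0.33 in DT-D2, a difference of 0.68 (SE 0.15, adjusted p = 0.00416) below 2-fold. CIF1, known in soybean as an inhibitor of cell wall invertase, read -0.61, -0.77 and -0.48 in W-D2 and -0.07, 0.10 and 0.21 in DT-D2 (difference 0.70, SE 0.23, adjusted p = 0.0465). The DT2008 values of CIF1 were nearly level between 0 h and 2 h, with -0.06, 0.00 and -0.00 in DT-C.

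A subunit of a keto acid dehydrogenase, an aspartyl protease and an amidotransferase-like protein were each encoded by an upregulated member. Glyma.06G120300, described as the E1 alpha subunit of the branched-chain keto acid dehydrogenase that breaks down leucine, isoleucine and valine, read -0.66, -1.00 and -0.20 in W-D2 and 0.44, 1.18 and 0.95 in DT-D2. Before dehydration it read -1.40, -1.75 and -1.77 in W-C and 0.93, 0.70 and 0.50 in DT-C, the widest gap between the well-watered cultivars among the 27 genes (2.35). The 2 h difference of 1.48 (SE 0.23, adjusted p = 2.90e-04) corresponded to 2.78-fold. Glyma.14G212700, of the aspartyl protease family, read -0.30, -0.59 and -0.29 in W-D2 and 0.62, 0.73 and 0.71 in DT-D2, and was upregulated by 1.08 (SE 0.15, adjusted p = 8.94e-05). Glyma.18G294300, of the class I glutamine amidotransferase-like superfamily, read -0.27, -0.87 and -0.34 in W-D2 and 0.36, 0.81 and 0.66 in DT-D2, and was upregulated by 1.10 (SE 0.21, adjusted p = 0.00143). Both of the last calls lie near the fold threshold and were lost without W-D2 replicate 2, where the differences were below 2-fold.

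Of the 4 genes for vesicle, calcium-binding, ATPase and cupin proteins, 1 was upregulated. Glyma.09G019800, matched to VAMP726, a protein of vesicle fusion, read -0.93, -0.63 and -0.55 in W-D2 and 0.38, 0.79 and 0.58 in DT-D2, a difference of 1.28 (SE 0.25, adjusted p = 0.00185). Its W-D2 values were nearer to W-C (-0.94, -1.10 and -1.28) than to W-D10 (-0.05, 0.08 and 0.00), while the 3 DT-C values were spread from -0.66 to 0.88. The calcium-binding protein gene Glyma.17G034900, matched to CP1, had the smallest W-D2 minus W-C difference of the 27 genes (0.24), and its DT-D2 and DT-C means were equal to 2 decimals (both 0.13). It read -0.68, -0.58 and -1.01 in W-D2 and 0.19, -0.01 and 0.21 in DT-D2, and the difference of 0.89 (SE 0.19, adjusted p = 0.00442) was below 2-fold. The AAA-type ATPase gene Glyma.19G018700 (0.73, SE 0.17, adjusted p = 0.00828) and the cupin gene Glyma.03G168900 (0.78, SE 0.16, adjusted p = 0.00287) likewise passed the adjusted p alone.

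The remaining 5 genes have no described function here, and 3 of them were upregulated. Glyma.01G192800 read -1.82, -1.96 and -2.04 in W-C, -0.09, -1.00 and 0.18 in W-D2, 0.02, 0.43 and -0.44 in DT-C, and 1.12, 1.48 and 1.29 in DT-D2. Its DT-D10 values of -0.38, 0.09 and -0.02 were back within the DT-C range, and the 2 h difference of 1.60 (SE 0.27, adjusted p = 5.03e-04) stood beside one of -0.11 at 10 h. Glyma.03G117800 (1.25, SE 0.28, adjusted p = 0.00548) and Glyma01g38500 (1.25, SE 0.25, adjusted p = 0.00239) were upregulated as well. Glyma01g38500 was the lone gene of the 27 other than Glyma.17G034900 with a lower mean in DT-D2 than in DT-C, by -0.17. Glyma.13G085900 (0.86, SE 0.21, adjusted p = 0.00857) and LOC100305493 (0.52, SE 0.28, adjusted p = 0.241) were not upregulated.

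The 5 largest 2 h differences of the set belonged to probes with no paired gene. Probe 11865404 read -1.77, -0.89 and -1.36 in W-C, -0.03, -0.19 and 0.44 in W-D2, -0.02, 0.02 and 0.35 in DT-C, and 1.89, 2.87 and 2.32 in DT-D2. Its difference was 2.29 (SE 0.29, adjusted p = 3.68e-05), and by 10 h DT2008 had returned to 0.13, 0.92 and -0.10. Probes 11995687 (2.18), 12167387 (2.09), 11937201 (2.09) and 11865464 (2.06) followed. In these 4 every DT-D2 array was above every W-D2 array.

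Other unpaired probes departed from the common course. Probe 12110849, the 1 member with its lowest mean in W-D2, read -2.12, -1.44 and -1.53 in W-C, -1.85, -1.75 and -2.13 in W-D2, and 0.35, 0.64 and -0.22 in W-D10, so that W82 showed no higher level at 2 h and did at 10 h. DT-D2 read -0.80, 0.16 and 0.29, and the difference was 1.79 (SE 0.28, adjusted p = 3.11e-04). Probes 11814241 and 11814259 read -3.42, -2.62 and -3.37, and -2.55, -2.78 and -2.36, in W-C. In W-D2 they read -0.08, -3.00 and 0.06, and -0.01, -2.32 and -0.03, the second array being close to W-C and the other 2 far above it, though below every DT-D2 array. Neither passed (adjusted p = 0.122 and 0.0540). Probe 11906289 overlapped between W-C (-0.46, 0.15 and -0.94) and DT-C (0.68, -0.12 and 1.49) in spite of meeting the rule on means, and its 2 h difference was 0.03.

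The step from well-watered roots to 2 h of drying was described for each cultivar. In W82, 36 members were at least 2-fold higher in W-D2 than in W-C, against 1.92% of all probes, and the median difference was 0.89. In DT2008, 12 were at least 2-fold higher in DT-D2 than in DT-C, against 2.94% of all probes, with a median of 0.34 and a range from -0.90 to 2.24. For 29 members all DT-D2 values lay above all DT-C values, against 12.4% of all probes. The sharing of W-C with the rule favors a difference in W-D2/W-C, and that of DT-C works against one in DT-D2/DT-C, so these counts are descriptions.

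Both cultivars were at least 2-fold higher at 2 h for 11 members, among them NAC11, Glyma.02G070000, Glyma.01G192800, Glyma.13G218200, Glyma.14G083000, Glyma.19G014600 and LOC100305493. W82 alone was so for 25 members, including Glyma.02G058000, Glyma.06G120300, Glyma.11G056200 and Glyma.04G228300, DT2008 alone for 1 unpaired probe, and neither cultivar for 45. No share over all probes was taken for these classes. The rule selects a low W-C and a high DT-C, which favors W82 alone over DT2008 alone, so nothing is read from the split. Members with a larger difference in one cultivar tended to have a larger one in the other, with a Pearson r of 0.736 and a Spearman rho of 0.732 across the 82 members, beside 0.604 and 0.406 across all probes. These are correlations across probes of the same arrays, and probes are not independent replicates.

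**Figure D5:**
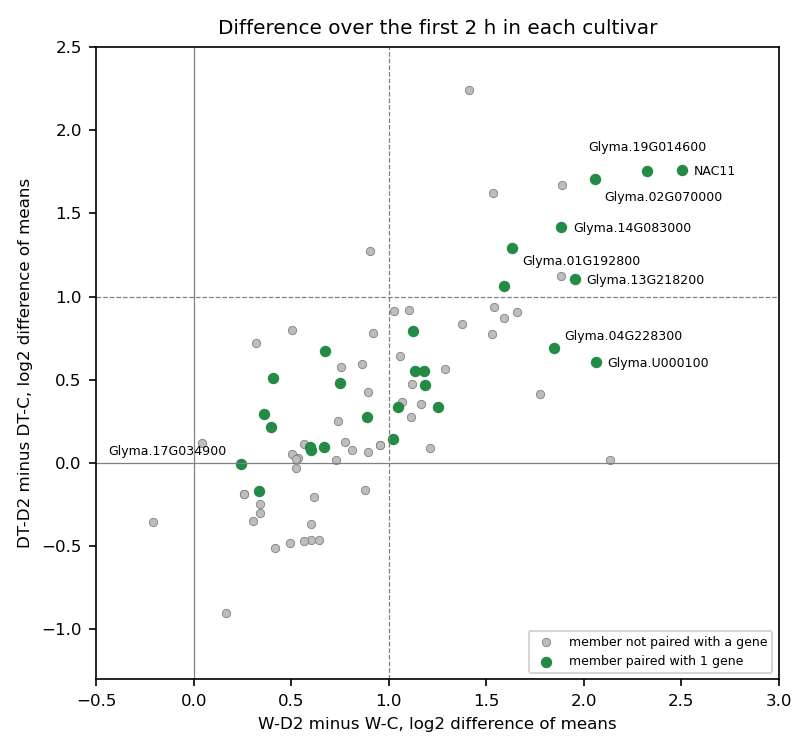
Log2 difference of group means over the first 2 h in W82 (W-D2 minus W-C, horizontal) and in DT2008 (DT-D2 minus DT-C, vertical) for each of the 82 members, with those paired with 1 gene in green and dashed lines at 2-fold. NAC11, Glyma.19G014600 and Glyma.02G070000 lie at the upper right, and Glyma.04G228300 and Glyma.U000100 lie past 1 in W82 but below 1 in DT2008.

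The W-D2 mean was above the W-D10 mean for 19 members, against 33146 of all 66195 probes, and at or above the DT-C mean for 12 members. The latter held 8 of the 27 genes: NAC11, LOC100305493, Glyma.02G070000, Glyma.04G228300, Glyma.13G218200, Glyma.14G083000, Glyma.19G014600 and Glyma.U000100. For 43 members all 3 W-D2 values lay below all 3 DT-C values, against 16.7% of all probes. The rule selected a high DT-C, so nothing is read from this count. In DT2008, 47 members had a DT-D2 mean within 0.5 of DT-C. Over all probes the quartiles of DT-D2 minus DT-C were -0.22 and 0.16, so most of the array lay within 0.5 as well. A nearly level course in DT2008 was thus not particular to the members. A DT-D2 mean at least 2-fold above DT-D10 was found for 10 members, against 706 of all 66195 probes. Among the 10 were NAC11, Glyma.01G192800, Glyma.02G070000 and Glyma.19G014600. The rule reads W-D10, DT-C and DT-D10, so these counts are descriptions, and for the 12 and the 47 no share over all probes was taken. A rule that reads only 0 h and 10 h thus placed genes with a peak at 2 h beside genes that were nearly level in DT2008.

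At 10 h the cultivars were closer in the median. The rule sets W-D10 further above W-C than it lets DT-D10 rise above DT-C. DT-D10 minus W-D10 therefore had to be smaller than DT-C minus W-C in every member. Nothing is read from this fall since 0 h, and the fall since 2 h was not tested. DT-D10 was at least 2-fold above W-D10 for 5 members, all unpaired, against 0.579% of all probes, and the median difference was 0.28 with a range from -0.67 to 1.49. The rule reads both groups, so this count and those that follow are descriptions. For 28 members all DT-D10 values lay above all W-D10 values, against 11.8% of all probes, among them Glyma.02G058000 (0.85), Glyma.15G019400 (0.93) and Glyma.06G120300 (0.71), and for 3 members they all lay below, against 9.93% of all probes.

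Genes with the same Arabidopsis match as a member were looked up after the values had been seen, as a description. For 7 member genes there were 11 such probes outside the set. Of the 11, 5 were upregulated in DT-D2/W-D2 and 0 downregulated, beside 5.73% and 6.21% of the 5832 probes with 1 gene. Part of the 5832, and possibly of the 11, come from tables of genes the study picked on the same arrays. Glyma.20G033300 and Glyma.01G051300, which share NAP with Glyma.07G229100, were upregulated by 1.51 (SE 0.24, adjusted p = 3.48e-04) and 1.21 (SE 0.27, adjusted p = 0.00562). Glyma.20G033300 missed the set by the band, with DT-D10 above DT-C by 0.99, and Glyma.01G051300 by W-D10, which was above W-C by 0.29. Glyma.16G043200, the other NAC047 match, was upregulated by 1.03 (SE 0.17, adjusted p = 3.88e-04). Of the PRR5 matches, Glyma.16G018000 was upregulated by 3.10 (SE 0.23, adjusted p = 6.99e-08), with means of -1.41, -2.06 and -1.47 in W-C, W-D2 and W-D10 and of 1.21, 1.04 and 1.25 in DT-C, DT-D2 and DT-D10, a cultivar difference at all 3 times. Glyma.06G136600, in contrast, peaked in W-D2 (mean 0.82) and differed at 2 h by -0.23 (SE 0.14, adjusted p = 0.342), nearer to the course of the member Glyma.04G228300.

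Gene families with a member in the set were read for all their annotated probes. Of 32 NAC probes, 6 were upregulated and 2 downregulated in DT-D2/W-D2, and 3 were members. Of 13 clock probes, 3 were upregulated and 2 downregulated, with 2 members; the downregulated pair was Glyma.07G048500, matched to LHY (-1.20, SE 0.16, adjusted p = 7.31e-05), and Glyma.07G037300, matched to ELF4-like 4 (-2.40, SE 0.20, adjusted p = 1.84e-07). Of 39 cytochrome P450 probes, 5 were upregulated and 7 downregulated, with 3 members. Of 42 MYB probes, 2 were upregulated and 3 downregulated, of 36 heat shock probes 6 and 2, of 86 transporter probes 13 and 13, and of 4 amine oxidation probes 0 and 0, each family with 1 member. Beside these stand 334 upregulated and 362 downregulated among the 5832 probes with 1 gene, a group chosen in part on these arrays. The other 14 lists, of 2 to 124 probes, held no member, from which nothing can be read, since only 27 of the 5833 probes with 1 gene were members.

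The difference at 2 h was not larger than in probes that met only the second condition. The 792 probes at least 2-fold higher in DT-C than in W-C without reaching 2-fold in W-D10/W-C had a median DT-D2 minus W-D2 difference of 0.90, and 343 of them were at least 2-fold higher, beside 0.82 and 35 of 82 here. The 2153 probes induced in W82 at 10 h without being 2-fold higher in DT-C had a median of 0.39. The 101 probes that met both conditions but fell outside the band had a median of 1.17. In the mirror set, the 206 probes low in DT-C and repressed in W82 at 10 h by the same thresholds, the median was -0.98. The differences between these medians were not tested.

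The thresholds fell within a continuous range. Just inside the first were Glyma.02G070000 (1.00) and Glyma.14G212700 (1.04), and just outside it, among probes with 1 gene that met the other conditions, Glyma.19G158100 (0.98) and Glyma.15G113000 (0.98). Just inside the second were Glyma.19G014600 (1.01) and Glyma.02G070000 (1.02), and just outside Glyma.13G062200 (0.94) and LOC100500277 (0.93). At the upper end of the band Glyma.14G083000 and CIF1 (0.50 and 0.49) were inside, and Glyma.02G255200 (0.51) and Glyma.13G030900 (0.51), the latter matched to the stress regulator ATAF1, were outside. At the lower end Glyma.06G120300 (-0.37) was inside, and the nearest gene outside was Glyma.04G049200 (-1.73), matched to branched-chain amino acid transaminase 2, which acts in the same breakdown pathway.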

How the data were processed

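Root RNA of 18 samples was hybridized to the Affymetrix 66K Soybean GeneChip. The log2 values analysed were deposited by the authors, and the submitters' processing notes name RMA and Affymetrix Expression Console (versions not given in the sources used here), while the methods name GeneSpring 11 for later steps. Each probe had been centred on its median over the 18 arrays, so no filter on dim probes could be set. The deposited table used here holds no fold changes or p-values.

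One model with a mean for each group was fitted to all 18 arrays by limma 3.58.1 under R 4.3.3 and moderated by eBayes. Residual degrees of freedom were 12, prior ones 6.28, and the residual SD had a median of 0.22. A probe was called upregulated or downregulated at a Benjamini-Hochberg adjusted p under 0.05 over all 66195 probes and a difference of at least 2-fold. The fit and the member rule were tested on simulated data. Only DT-D2/W-D2 was tested as a result. W-D10/W-C and DT-C/W-C were fitted solely to count the members that would meet an added adjusted p. The number of arrays limits the precision. No 2 arrays carried the same values. Same-numbered W-D2 and DT-D2 arrays did not deviate together (correlation of residuals -0.14 to -0.09), so the replicate numbers were not used as a block.

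Members and gene lists were chosen with earlier results of these data known. All members paired with exactly 1 gene may be named by the rule used. Probes were paired through identifiers in the study's tables (2975 probes) and array symbols (3055 with 1 symbol, 51 with several), which together gave 5833 probes with 1 gene; symbols were updated through RefSeq (Glycine_max_v4.0). Lists were made from gene descriptions and symbols. Sequences and promoters were not used here, and 1 probe that met the rule is not reported here. Alternatives were a fit of the 6 arrays at 2 h, the methods' t-test, a replicate block, no fold threshold, eBayes with trend and robust, array centring, quantile normalization, group medians, an added adjusted p, and leaving out each array. Python 3.11.15 with pandas 2.3.3, NumPy 2.4.6 and Matplotlib 3.10.9 served for tables and plots.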

Additional observations from a re-analysis of the deposited data

How the results depend on the processing

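Of the 82 members, 33 were upregulated in DT-D2/W-D2; 5 were by the t-test of the methods and 52 without the fold threshold. The count was 33 in a fit of the 6 arrays at 2 h, with trend and robust and after centring of each array, 37 after quantile normalization, and 24 (without W-D2 replicate 2) to 35 when each of the 18 arrays was left out in turn. No member was downregulated in any of these. The replicate numbers were not taken as pairing the samples, and with the replicate block 32 members were upregulated. The median difference of 0.82 was 0.97 after quantile normalization, 0.80 after centring, and 0.73 to 0.94 when each 2 h array was left out. The rule chose 22 probes after quantile normalization, 84 after centring and 90 from group medians (49 of them shared with the 82). When each array it reads was left out, it chose 64 (without DT-C replicate 3) to 108 (without W-C replicate 2). The cause of the fall under quantile normalization was not tested. A limma adjusted p under 0.05 in both W-D10/W-C and DT-C/W-C was met by 78 of the 82. The same comparisons on the same arrays chose the members, so nothing is read from this count. Chosen after seeing the data, 2 further counts were recomputed: members with a higher mean in DT-D2 numbered 81 to 82 without each 2 h array, and members with all DT-D2 values above all W-D2 values 61 under both scalings and 65 to 73 without each 2 h array. For the 27 genes, 651 of the recomputed differences kept their direction and side of the thresholds, 13 lost a call, 11 gained one and 0 reversed. Precision was limited by 3 arrays per group, and probe brightness is not in the values.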
